A study of Mus musculus with 4 samples.

Results

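The genes described here encode the machinery with which a cell copies its DNA and then divides. They are 42 genes chosen by symbol, 22 with roles in DNA replication and 20 with roles in mitosis, and all 42 were found among the 23997 gene rows of the deposited expression table. RNA was sequenced from Tfh (T follicular helper) cells, a CD4 lineage that gives help to germinal centre B cells, taken from lymph nodes and spleens of 13-week-old mice on the C57BL/6 strain. There were 2 libraries from mice of genotype Apoe-/- (labelled Apoe-KO), which lack apolipoprotein E, carry raised plasma cholesterol and are prone to atherosclerosis, and 2 from wild type (WT) mice. The labels give no diet or treatment, do not say how the Tfh cells were purified or which markers defined them, and leave unsaid whether each replicate came from its own animal or from a pool. The p-values thus cover library-to-library spread only, and that spread may be technical.

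Before a cell divides, the helicase ring built from the MCM proteins is loaded on origins of replication in G1, and is then activated by Cdc45 and the GINS complex as S phase begins. Transcription of these genes and of the enzymes that supply nucleotides is switched on by E2F factors when cyclin and kinase activity releases them from pocket proteins. The mitotic genes come on later, in G2, largely through NF-Y, B-Myb and FoxM1 acting at promoter elements called the CCAAT box and the CHR (cell cycle genes homology region). In lymphoid follicles, Tfh cells divide while they help B cells, whereas resting T cells carry little RNA of either group. In bulk RNA, fewer dividing cells and less of these RNAs in each dividing cell cannot be told apart.

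Promoter windows of 5 members are printed here to show these elements: in each group the most abundant gene and the one with the largest difference between genotypes, and Mcm6, picked after the matches were counted. The largest difference was that on the main log2 scale described below, and other scales rank some genes differently. RefSeq promoter windows (GRCm38.p6), each 250 bases before to 50 bases from the start of the gene on, were available for 17 of the 22 replication genes and 17 of the 20 mitotic genes. They were searched on both strands for 4 forms of the E2F element (TTCCCGC, then the form TTGGCGC, then the form TTCGCGC, then the form TTGCCGC), for 2 forms of the CHR (TTTGAA, then the form TTCGAA), and for the CCAAT box by its own letters. Capitals mark every match, overlapping ones included, and the sequences run 5′ to 3′ along the gene.
Pcna (chr2:132253131-132253430, minus strand), the replication gene with the highest level: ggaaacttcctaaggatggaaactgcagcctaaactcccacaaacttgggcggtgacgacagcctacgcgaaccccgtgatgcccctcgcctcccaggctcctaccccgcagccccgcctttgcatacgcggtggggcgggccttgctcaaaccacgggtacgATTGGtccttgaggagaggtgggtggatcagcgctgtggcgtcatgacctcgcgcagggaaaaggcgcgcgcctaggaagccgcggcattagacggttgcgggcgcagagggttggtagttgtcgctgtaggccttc
Cdc6 (chr11:98907901-98908200, plus strand), the replication gene with the largest difference between genotypes: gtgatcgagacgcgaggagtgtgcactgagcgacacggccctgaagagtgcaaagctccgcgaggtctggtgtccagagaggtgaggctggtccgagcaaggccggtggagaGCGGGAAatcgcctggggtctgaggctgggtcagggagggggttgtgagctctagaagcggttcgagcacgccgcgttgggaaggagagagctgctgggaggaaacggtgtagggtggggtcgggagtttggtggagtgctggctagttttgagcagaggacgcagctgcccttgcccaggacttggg
Mcm6 (chr1:128359656-128359955, minus strand), the replication gene with the most E2F matches: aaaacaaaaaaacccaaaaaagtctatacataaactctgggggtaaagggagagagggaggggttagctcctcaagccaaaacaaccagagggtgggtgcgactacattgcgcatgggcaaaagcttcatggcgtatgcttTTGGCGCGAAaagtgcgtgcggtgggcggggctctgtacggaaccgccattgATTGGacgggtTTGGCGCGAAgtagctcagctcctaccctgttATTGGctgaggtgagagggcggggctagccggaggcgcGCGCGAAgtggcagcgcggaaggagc
Top2a (chr11:99024140-99024439, minus strand), the mitotic gene with the highest level: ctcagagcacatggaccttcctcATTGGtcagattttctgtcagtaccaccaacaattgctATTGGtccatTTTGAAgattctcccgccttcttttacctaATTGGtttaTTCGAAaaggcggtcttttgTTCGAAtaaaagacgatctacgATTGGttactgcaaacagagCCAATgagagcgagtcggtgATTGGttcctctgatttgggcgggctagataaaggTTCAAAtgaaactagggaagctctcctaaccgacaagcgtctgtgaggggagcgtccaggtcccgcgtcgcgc
Aurka (chr2:172370521-172370820, minus strand), the mitotic gene with the largest difference: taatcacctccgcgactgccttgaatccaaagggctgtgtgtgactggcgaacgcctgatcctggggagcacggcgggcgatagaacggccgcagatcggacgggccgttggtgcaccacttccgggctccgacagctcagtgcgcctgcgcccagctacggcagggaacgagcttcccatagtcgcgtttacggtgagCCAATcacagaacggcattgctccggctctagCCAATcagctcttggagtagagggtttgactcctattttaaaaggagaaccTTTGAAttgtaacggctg

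In these windows Mcm6 carries 5 E2F matches and 2 CCAAT boxes and no CHR. Its E2F matches at -109 and -106 from the start overlap each other, as do those at -46 and -43. The start in the Mcm6 window, unlike those in the other printed windows, did not match a GENCODE transcript. Top2a, in contrast, carries 4 CHR matches and 6 CCAAT boxes and no E2F match. Aurka has 1 CHR match and 2 CCAAT boxes, Cdc6 has 1 E2F match, and Pcna has 1 CCAAT box. The E2F letters were present in 10 of the 17 replication windows (58.8%) and in 3 of the 17 mitotic windows (17.6%), against 20.1% of the 8476 tested genes with a window and 10.9% of all 27025 genes with one. CHR letters together with CCAAT were present in 13 of the 17 mitotic genes (76.5%) and in 3 of the 17 replication genes (17.6%), against 7.95% of tested genes and 9.65% of all genes. Among replication genes only Mcm2, Mcm7 and Cdc45 carried both. A match is a description of the letters and not a bound site, and a gene with several windows was counted when any of them matched.

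The targeted gene was checked first. Apoe was at 5.09 and 5.21 FPKM in the Apoe-KO libraries, against 145 and 128 FPKM in the WT libraries, which matches the labels (log2 difference -4.48 ± 0.11 SE, adjusted p = 0.000315). FPKM are fragment counts scaled by transcript length and by the mapped fragments of the library. FPKM are thus relative levels, and comparisons between libraries depend in part on that scaling. They were analysed as log2(FPKM + 1) with limma for the 11187 genes with a mean of 1 FPKM or more over the 4 libraries, and all 42 genes passed that filter. FPKM totals were 533866 and 551289 in the Apoe-KO libraries and 522371 and 527056 in the WT libraries, while read depth is unknown. Of the markers that define the labelled cell type, Cxcr5 was at 223 and 204 FPKM in the Apoe-KO libraries, against 176 and 162 FPKM in the WT libraries, and Cd4 was at 406 and 408 FPKM in the Apoe-KO libraries, against 368 and 365 FPKM in the WT libraries. Pdcd1, which encodes the Tfh marker PD-1, was at 203 and 179 FPKM in the Apoe-KO libraries, against 283 and 259.6 FPKM in the WT libraries, the largest difference among the 10 Tfh markers (log2 difference -0.50 ± 0.10 SE, adjusted p = 0.0887).

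Replication and mitotic genes were modestly lower in Apoe-KO Tfh cells, and no member passed the test. Of the 42 genes, 39 had a negative log2 difference, among them all 20 mitotic genes, and only Tk1, Ccne1 and Gins1 had a positive one. In limma's test 0 of 42 genes passed the adjusted threshold of 0.05, where 1.83% of all tested genes did (0.948% higher and 0.885% lower in Apoe-KO). At an unadjusted p under 0.05, 14 members were lower and 0 higher, against 8.27% and 11.6% of all tested genes. Both Apoe-KO libraries lay below both WT libraries for 29 of the 42 members, against 22.9% of all tested genes, and above them for 2, against 27.5%. The smallest p that an exact permutation test of 2 libraries against 2 allows is 0.333, so none was run for single genes.

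Summed over the 22 replication genes, FPKM came to 667 and 728 in the Apoe-KO libraries, against 809 and 871 in the WT libraries. Summed over the 20 mitotic genes, they came to 198 and 219.97 FPKM in the Apoe-KO libraries, against 243 and 274 FPKM in the WT libraries. Neither sum overlapped between the genotypes, and the replication sum without Pcna, which alone held a large part of it, was 426 and 445 FPKM in Apoe-KO and 491 and 513 FPKM in WT. The median log2 difference was -0.18 for replication genes and -0.26 for mitotic genes, beside 0.00 for all tested genes. Replication genes ranged from -0.57 to 0.33 and mitotic genes from -0.63 to -0.10, so the mitotic genes all lay on one side of 0 while the replication genes did not. Whether the medians of the 2 groups differ was not tested. Replication genes were also the more abundant, with a median level of 21.97 FPKM over the 4 libraries, beside 10.9 FPKM for mitotic genes.

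**Figure D1:**
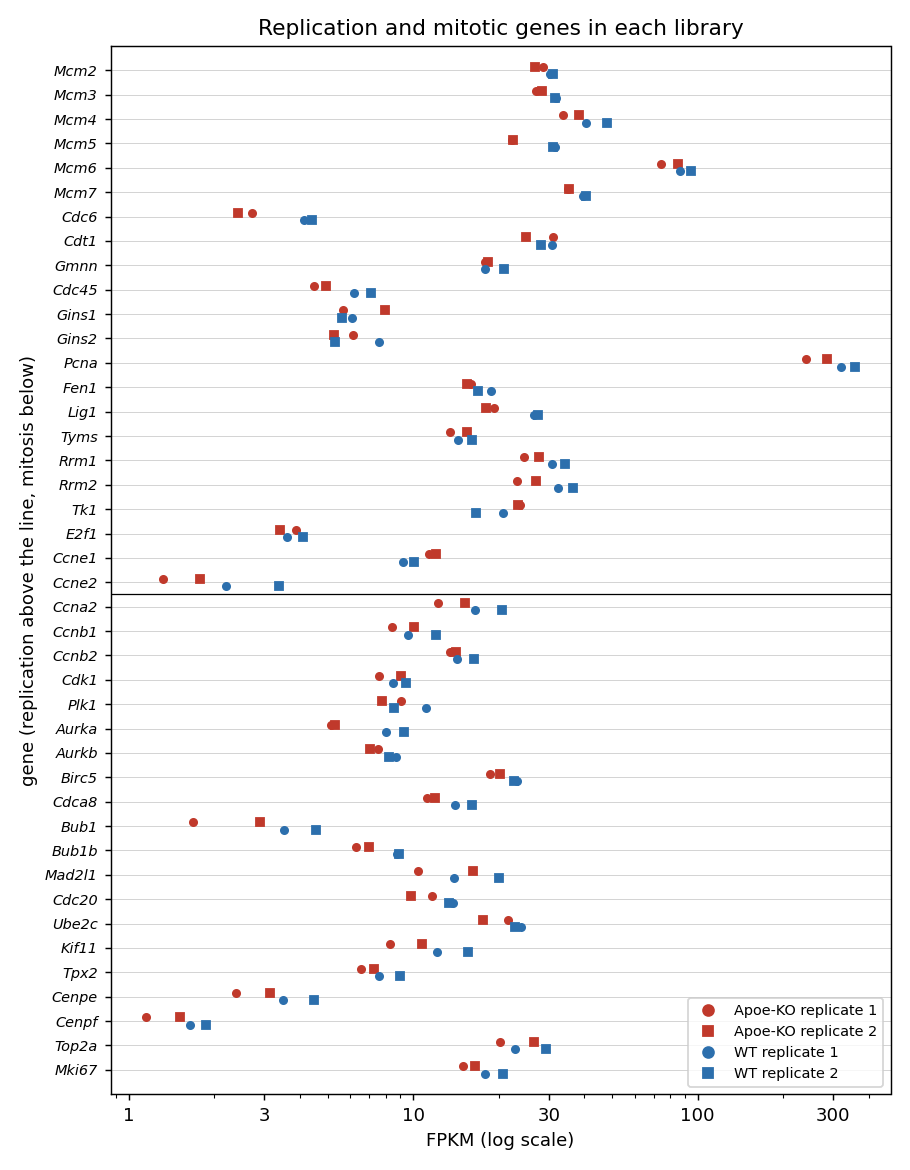
FPKM on a log scale of each of the 42 genes in each library, Apoe-KO in red above WT in blue, with circles for replicate 1 and squares for replicate 2 and replication genes above the line. In 29 of the 42 genes both red points lie left of both blue points, and Pcna is the highest gene throughout.

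The MCM subunits, which form the ring of the replicative helicase, were lower in Apoe-KO cells without overlap in all 6 cases. The same held for 22.9% of all tested genes. Mcm5 stood furthest apart, at 22.2 and 22.5 FPKM in the Apoe-KO libraries, against 31.5 and 30.9 FPKM in the WT libraries (log2 difference -0.46 ± 0.10 SE, adjusted p = 0.0924, 95% interval -0.71 to -0.22). Its libraries of each genotype agreed closely, with differences of -0.49 between the libraries numbered 1 and -0.44 between those numbered 2. Mcm6, the most abundant subunit (chromosome 1, 128331575 to 128359705, GRCm38, GENCODE gene bounds), was at 74.3 and 85.2 FPKM in the Apoe-KO libraries, against 86.5 and 94.8 FPKM in the WT libraries (log2 difference -0.18 ± 0.11 SE, adjusted p = 0.426). For Mcm6 the higher Apoe-KO library came within 1.29 FPKM of the lower WT library. Mcm4 was at 33.5 and 38.3 FPKM in Apoe-KO and 40.5 and 47.8 FPKM in WT. Mcm7 was at 35.1 and 35.2 FPKM in Apoe-KO and 39.6 and 40.5 FPKM in WT. Replicates of Mcm7 lay closer to each other than to the other genotype. Mcm3 was at 27.04 and 28.4 FPKM in Apoe-KO and 31.9 and 31.5 FPKM in WT, and Mcm2 was at 28.5 and 26.8 FPKM in Apoe-KO and 30.2 and 30.9 FPKM in WT. Although the 6 proteins assemble in equal numbers, their RNA levels spanned 26.8 to 85.2 FPKM as means over the 4 libraries. Their median log2 difference was -0.19.

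Among the members that load the helicase or restrain its loading, Cdc6 was the lowest relative to WT. Cdc6, the loader that brings MCM rings to origins, was at 2.71 and 2.42 FPKM in the Apoe-KO libraries, against 4.14 and 4.41 FPKM in the WT libraries (log2 difference -0.57 ± 0.13 SE, adjusted p = 0.0992, 95% interval -0.88 to -0.25). Both Apoe-KO values lay well below both WT values. On the log2(FPKM + 1) scale this was the largest difference among the 22 replication genes. With log2(FPKM + 0.5) and log2(FPKM + 0.1) the replication gene Ccne2 was lower (-0.66 and -0.79) than Cdc6 (-0.64 and -0.72). Cdt1, its partner in loading, was at 31.1 and 24.96 FPKM in the Apoe-KO libraries, against 30.8 and 28.1 FPKM in the WT libraries, and the genotypes overlapped (log2 difference -0.08 ± 0.14 SE, adjusted p = 0.799). Geminin (Gmnn), which binds Cdt1 and prevents a second round of licensing, was at 17.9 and 18.3 FPKM in Apoe-KO and 17.8 and 20.9 FPKM in WT and also overlapped (log2 difference -0.09 ± 0.12 SE, adjusted p = 0.727).

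Among the genes that activate the helicase, Cdc45 was at 4.48 and 4.93 FPKM in the Apoe-KO libraries, against 6.19 and 7.11 FPKM in the WT libraries (log2 difference -0.42 ± 0.13 SE, adjusted p = 0.164), without overlap. Of the GINS subunits, the members Gins1 and Gins2 had differences of opposite sign and overlapped between genotypes. Gins3 and Gins4, further subunits that are not members, were both lower in Apoe-KO without overlap. Gins3 was at 3.78 and 5.37 FPKM in Apoe-KO and 6.19 and 7.07 FPKM in WT. Gins4 was at 17.5 and 18.1 FPKM in Apoe-KO and 20.96 and 22.4 FPKM in WT. Their log2 differences were -0.47 ± 0.18 SE and -0.27 ± 0.10 SE (adjusted p = 0.234 and 0.241). Gins1 was at 5.66 and 7.96 FPKM in the Apoe-KO libraries, against 6.08 and 5.61 FPKM in the WT libraries (log2 difference 0.18 ± 0.17 SE, adjusted p = 0.615), with replicate 2 of Apoe-KO alone above the rest. Gins2 was at 6.16 and 5.26 FPKM in Apoe-KO and 7.55 and 5.32 FPKM in WT (log2 difference -0.13 ± 0.18 SE, adjusted p = 0.721). Of the exon bases of Gins2, 70.7% are also exonic in Gse1 on the opposite strand, and no strand setting is given in the sources used here.

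The clamp and the enzymes that finish the lagging strand were lower without overlap in all 3 cases, against 22.9% of all tested genes. Pcna, the sliding clamp that holds the polymerases on DNA (chromosome 2, 132249286 to 132253180), was the most abundant of the 42 genes, ranking at the 98.01 percentile of tested genes. It was at 241 and 284 FPKM in the Apoe-KO libraries, against 318 and 358 FPKM in the WT libraries (log2 difference -0.37 ± 0.12 SE, adjusted p = 0.179, -0.40 between the libraries numbered 1 and -0.33 between those numbered 2), a mean level 22.3% lower in Apoe-KO. Lig1, the ligase that seals Okazaki fragments, was at 19.2 and 17.98 FPKM in the Apoe-KO libraries, against 26.6 and 27.5 FPKM in the WT libraries (log2 difference -0.51 ± 0.10 SE, adjusted p = 0.0858, 95% interval -0.77 to -0.25). Its gap between genotypes was several times the spread within either of them. Fen1, the nuclease that trims the fragments before they are sealed, was at 16.01 and 15.5 FPKM in the Apoe-KO libraries, against 18.8 and 16.9 FPKM in the WT libraries (log2 difference -0.17 ± 0.11 SE, adjusted p = 0.458). Most exon bases of Fen1 (78.8%) are also exonic in a predicted gene on the opposite strand, Gm10143. Exons of 12 members overlap a gene on the opposite strand, and in the other 10 besides Gins2 and Fen1 the share is at most 22.8% (Ube2c).

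Nucleotide supply split between the ribonucleotide reductase genes and Tk1. Rrm2, the regulatory subunit that limits the reductase outside S phase, was at 23.2 and 27.00 FPKM in the Apoe-KO libraries, against 32.2 and 36.6 FPKM in the WT libraries (log2 difference -0.44 ± 0.13 SE, adjusted p = 0.153, -0.45 between the libraries numbered 1 and -0.43 between those numbered 2). Rrm1, the catalytic subunit, was at 24.6 and 27.6 FPKM in the Apoe-KO libraries, against 30.9 and 34.3 FPKM in the WT libraries (log2 difference -0.31 ± 0.12 SE, adjusted p = 0.234). The reductase subunits did not overlap between genotypes, and both had a mean level lower in Apoe-KO. Tyms, which makes thymidylate, was at 13.5 and 15.5 FPKM in the Apoe-KO libraries, against 14.4 and 16.1 FPKM in the WT libraries with overlap (log2 difference -0.07 ± 0.12 SE, adjusted p = 0.789). Tk1, the cytosolic thymidine kinase of the salvage route, went the other way, at 23.8 and 23.4 FPKM in the Apoe-KO libraries, against 20.6 and 16.7 FPKM in the WT libraries. Both Apoe-KO values of Tk1 lay above both WT values (log2 difference 0.33 ± 0.13 SE, adjusted p = 0.254, 95% interval -0.0017 to 0.66), which made it the member with the largest positive difference.

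The genes that drive entry into S phase also diverged. Ccne1 and Ccne2 encode the cyclins E, partners of Cdk2 at the G1/S transition, and stood on opposite sides of 0. Ccne1, the more abundant, was at 11.4 and 12.1 FPKM in the Apoe-KO libraries, against 9.18 and 10.03 FPKM in the WT libraries (log2 difference 0.26 ± 0.11 SE, adjusted p = 0.28), above WT without overlap. Ccne2 was at 1.32 and 1.78 FPKM in the Apoe-KO libraries, against 2.195 and 3.38 FPKM in the WT libraries (log2 difference -0.56 ± 0.20 SE, adjusted p = 0.217), below WT without overlap. Their difference within the comparison was not tested against each other. E2f1, an activator of many genes of this group, was at 3.89 and 3.39 FPKM in Apoe-KO and 3.602 and 4.104 FPKM in WT, with overlap (log2 difference -0.07 ± 0.13 SE, adjusted p = 0.82).

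**Figure D2:**
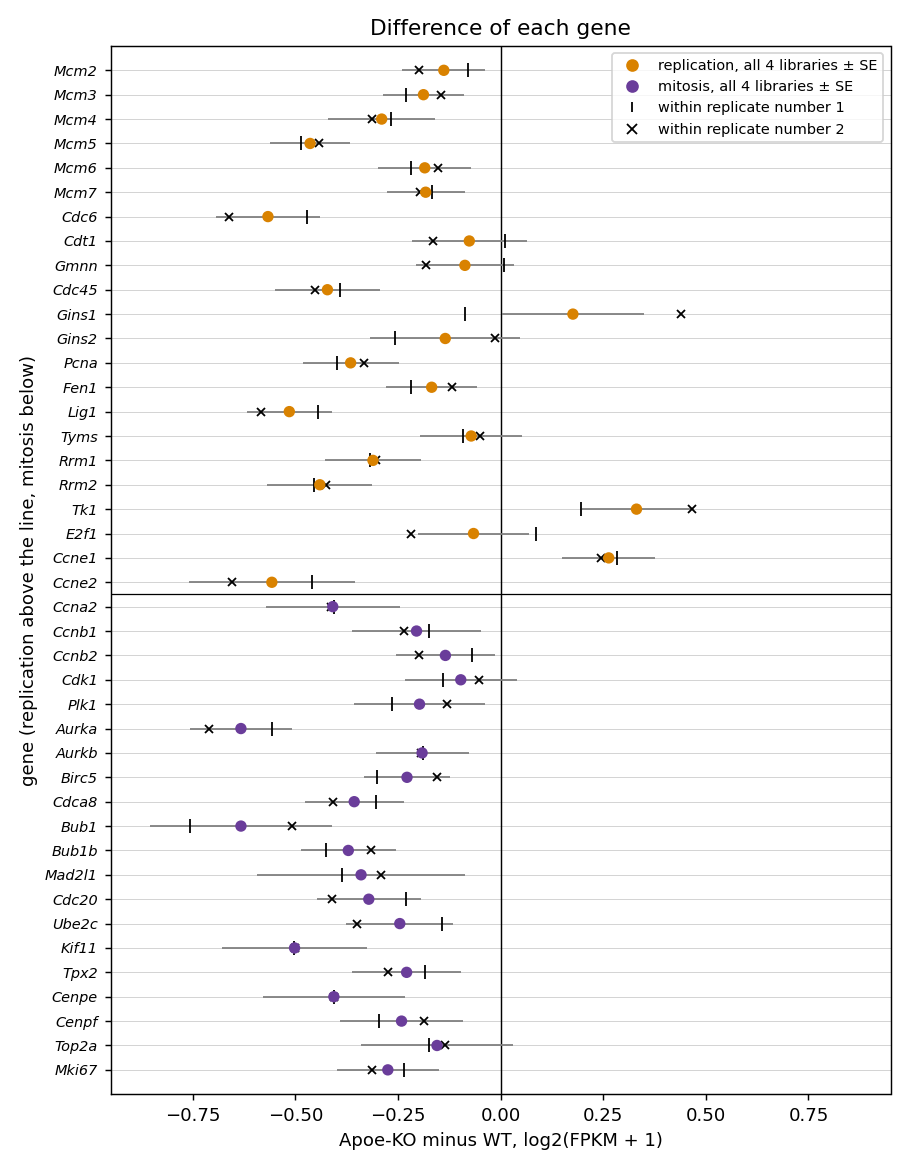
Apoe-KO minus WT difference of log2(FPKM + 1) for each gene, as a point with its standard error (orange for replication, purple for mitosis), with the differences within replicate number 1 (bar) and number 2 (cross). All 20 mitotic points lie left of 0, down to -0.63 for Aurka and Bub1, while Tk1 at 0.33 lies furthest right.

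Cyclin A2, the B cyclins and Cdk1, the kinase whose activity triggers mitosis, were all lower on average in Apoe-KO cells, and none passed the test. Ccna2 was at 12.2 and 15.2 FPKM in the Apoe-KO libraries, against 16.5 and 20.6 FPKM in the WT libraries (log2 difference -0.41 ± 0.16 SE, adjusted p = 0.253), lower without overlap. Replicate 2 was the higher library of Ccna2 in both genotypes. Ccnb1 was at 8.41 and 10.1 FPKM in Apoe-KO and 9.62 and 12.1 FPKM in WT and overlapped. Ccnb2 was at 13.5 and 14.2 FPKM in Apoe-KO and 14.2 and 16.4 FPKM in WT, just short of overlapping. Cdk1 itself had the smallest mitotic difference, at 7.59 and 9.09 FPKM in the Apoe-KO libraries, against 8.47 and 9.47 FPKM in the WT libraries (log2 difference -0.10 ± 0.14 SE, adjusted p = 0.73, 95% interval -0.44 to 0.24).

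On the log2(FPKM + 1) scale the largest difference of the 42 genes was that of Aurka, closely followed by Bub1. Aurka is the centrosomal kinase that matures the spindle poles (chromosome 2, 172356190 to 172370886). It was at 5.14 and 5.303 FPKM in the Apoe-KO libraries, against 8.02 and 9.302 FPKM in the WT libraries (log2 difference -0.63 ± 0.13 SE, adjusted p = 0.0847, -0.56 between the libraries numbered 1 and -0.71 between those numbered 2), a mean level 39.7% lower in Apoe-KO. The higher Apoe-KO value was 2.72 FPKM below the lower WT value. With log2(FPKM + 0.5) Bub1 had the larger difference (-0.73, against -0.68 for Aurka). With log2(FPKM + 0.1) Bub1 (-0.83), Ccne2 (-0.79) and Cdc6 (-0.717) were all lower than Aurka (-0.716). Plk1, the polo-like kinase that acts from centrosome maturation to cytokinesis, was at 9.03 and 7.75 FPKM in the Apoe-KO libraries, against 11.1 and 8.57 FPKM in the WT libraries, with overlap (log2 difference -0.20 ± 0.16 SE, adjusted p = 0.541). Aurora B, survivin and borealin belong to the chromosomal passenger complex, which corrects faulty attachments of chromosomes to the spindle. The genes of all 3 were lower without overlap, against 22.9% of all tested genes. Incenp, a further gene of the complex and not among the 42, overlapped between genotypes (log2 difference -0.05 ± 0.10 SE, adjusted p = 0.813). Birc5 (survivin) was at 18.6 and 20.2 FPKM in Apoe-KO and 23.2 and 22.6 FPKM in WT (log2 difference -0.23 ± 0.11 SE, adjusted p = 0.307). Cdca8 (borealin) was at 11.2 and 11.9 FPKM in Apoe-KO and 14.02 and 16.1 FPKM in WT (log2 difference -0.36 ± 0.12 SE, adjusted p = 0.198). Aurkb, the kinase of the complex, showed a gap of 0.707 FPKM between the genotypes, at 7.53 and 7.08 FPKM in Apoe-KO and 8.72 and 8.24 FPKM in WT.

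The spindle checkpoint holds anaphase until every chromosome is attached, and its genes were among the lower mitotic members. Bub1, a checkpoint kinase at kinetochores, was at 1.68 and 2.900 FPKM in the Apoe-KO libraries, against 3.52 and 4.55 FPKM in the WT libraries (log2 difference -0.63 ± 0.22 SE, adjusted p = 0.209, 95% interval -1.19 to -0.08). Its value in Apoe-KO replicate 1 was the lowest by a margin. With the lone Apoe-KO library assumed to vary like the WT ones, the difference of Bub1 was -0.36 without Apoe-KO replicate 1 (adjusted p = 0.452) and -0.90 without Apoe-KO replicate 2 (adjusted p = 0.0136), and the adjusted p reached 0.612 without WT replicate 2. Bub1b (BubR1), which with Mad2 inhibits Cdc20, was at 6.29 and 6.98 FPKM in the Apoe-KO libraries, against 8.79 and 8.94 FPKM in the WT libraries (log2 difference -0.37 ± 0.12 SE, adjusted p = 0.171). Mad2l1, which encodes Mad2, was at 10.4 and 16.2 FPKM in the Apoe-KO libraries, against 13.95 and 20.1 FPKM in the WT libraries (log2 difference -0.34 ± 0.25 SE, adjusted p = 0.512). Mad2l1 differed more between replicates of a genotype than between the genotype means, and replicate 2 was again the higher.

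Cdc20 and Ube2c, which activate and feed the anaphase-promoting complex that ends mitosis, were lower in Apoe-KO cells without overlap. Cdc20 was at 11.7 and 9.79 FPKM in the Apoe-KO libraries, against 13.8 and 13.4 FPKM in the WT libraries (log2 difference -0.32 ± 0.13 SE, adjusted p = 0.248), and Ube2c, the ubiquitin-conjugating enzyme, at 21.5 and 17.6 FPKM in Apoe-KO and 23.8 and 22.7 FPKM in WT (log2 difference -0.25 ± 0.13 SE, adjusted p = 0.367). For both genes Apoe-KO replicate 2 was the lowest library. The spindle and kinetochore genes were lower in all 4 cases, again without overlap, against 22.9% of all tested genes. Kif11, the motor that pushes spindle poles apart, was at 8.27 and 10.7 FPKM in the Apoe-KO libraries, against 12.1 and 15.6 FPKM in the WT libraries (log2 difference -0.50 ± 0.18 SE, adjusted p = 0.211, -0.50 between the libraries numbered 1 and -0.50 between those numbered 2). Cenpe, a kinetochore motor, was at 2.38 and 3.14 FPKM in Apoe-KO and 3.48 and 4.48 FPKM in WT. Tpx2, the activator of Aurora A, was at 6.56 and 7.28 FPKM in Apoe-KO and 7.59 and 9.01 FPKM in WT. Cenpf, a large kinetochore protein and the least abundant member, was at 1.15 and 1.52 FPKM in Apoe-KO and 1.64 and 1.86 FPKM in WT.

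Mki67 and Top2a are widely used to mark dividing cells, and neither passed the test. Mki67, which encodes Ki-67, the coat of mitotic chromosomes, was at 14.99 and 16.5 FPKM in the Apoe-KO libraries, against 17.8 and 20.7 FPKM in the WT libraries (log2 difference -0.27 ± 0.12 SE, adjusted p = 0.3, 95% interval -0.59 to 0.04). Top2a, the topoisomerase that untangles sister chromosomes and the most abundant mitotic member, was at 20.1 and 26.6 FPKM in the Apoe-KO libraries, against 22.8 and 29.3 FPKM in the WT libraries (log2 difference -0.15 ± 0.18 SE, adjusted p = 0.685, 95% interval -0.62 to 0.31). Mki67 did not overlap between genotypes, whereas Top2a did, because replicate 2 of Apoe-KO exceeded replicate 1 of WT.

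Replicate 2 was more often the higher library in the mitotic genes. The replication genes in Apoe-KO lay near the share of all tested genes. Replicate 2 exceeded replicate 1 in 30 of the 42 genes in Apoe-KO and in 30 of 42 in WT, beside 59.9% and 55.4% of all tested genes. For mitotic genes the counts were 16 of 20 in Apoe-KO and 15 of 20 in WT, with median shifts of 0.13 and 0.19 on the log2 scale. For replication genes they were 14 of 22 in Apoe-KO and 15 of 22 in WT, with median shifts of 0.048 and 0.096. Over all tested genes the median shifts were 0.060 in Apoe-KO and 0.033 in WT. No label says that libraries with the same number have anything else in common. Between the libraries numbered 1 the median genotype difference was -0.22 for replication and -0.28 for mitotic genes, and between those numbered 2 it was -0.20 and -0.30. The difference was negative within both numbers for 36 of the 42 members, against 39.5% of all tested genes. All 20 mitotic genes and 16 of the 22 replication genes were among these, and Tk1 and Ccne1 were positive within both.

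**Figure D3:**
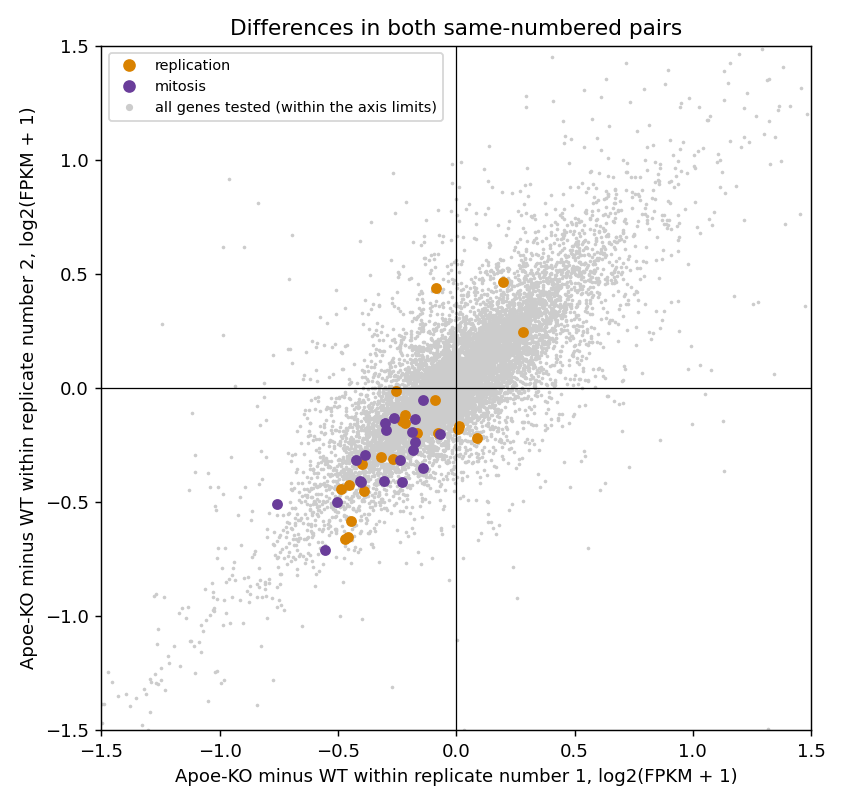
Apoe-KO minus WT difference of log2(FPKM + 1) within replicate number 1 (horizontal) and within number 2 (vertical), with replication genes in orange, mitotic genes in purple and all tested genes within the axis limits in grey. The lower left corner region holds 36 of the 42 genes, all 20 mitotic ones among them.

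Further genes of the same processes were counted in the same way. Of 42 other replication genes (polymerase, RPA, RFC and origin recognition subunits among them) 0 passed the test, the median log2 difference was -0.17, and 16 lay below WT without overlap while 5 lay above. Of 42 other mitotic genes 0 passed, the median was -0.26, and 26 lay below WT without overlap while 1 lay above. By unadjusted p under 0.05, 7 of the other replication genes were lower and 1 higher, and 7 of the other mitotic genes were lower and 0 higher. Over all tested genes the shares were 22.9% below and 27.5% above WT without overlap, and 8.27% lower and 11.6% higher by unadjusted p. Foxm1 and Mybl2, which encodes B-Myb, are transcription factor genes of the G2 program and had differences of opposite sign. Foxm1 was at 5.004 and 4.42 FPKM in Apoe-KO, against 6.92 and 6.36 FPKM in WT (log2 difference -0.42 ± 0.12 SE, adjusted p = 0.157). Mybl2 lay above WT without overlap. It was at 4.002 and 4.26 FPKM in Apoe-KO, against 3.80 and 3.52 FPKM in WT (log2 difference 0.14 ± 0.12 SE, adjusted p = 0.572).

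Regulators of cyclin-dependent kinases were counted as a separate list. It holds 13 genes, namely D cyclins, kinases and their activating subunits, and the phosphatase genes Cdc25a, Cdc25b and Cdc25c, of which Cdc25b and Cdc25c act mainly at entry into mitosis. These had a median log2 difference of -0.005 and none passed the test by adjusted or unadjusted p. Cdc25c had the lowest difference of the list at -0.40. Whether this list differs from the replication or mitotic genes was not tested. Ccnd2, a D cyclin that T cells use to leave G1, was at 56.00 and 54.1 FPKM in the Apoe-KO libraries, against 48.6 and 51.6 FPKM in the WT libraries (log2 difference 0.13 ± 0.10 SE, adjusted p = 0.498). Ccnd3, the other D cyclin prominent in T cells, was at 65.9 and 58.8 FPKM in the Apoe-KO libraries, against 72.3 and 62.2 FPKM in the WT libraries (log2 difference -0.11 ± 0.12 SE, adjusted p = 0.67). The 16 tested E2F and DREAM factors had a median of -0.03, with 0 passing. By unadjusted p 1 was lower and 0 higher, beside 8.27% and 11.6% of all tested genes. The pocket protein gene Rbl2, which represses these genes in resting cells, was at 32.5 and 37.7 FPKM in the Apoe-KO libraries, against 34.5 and 37.7 FPKM in the WT libraries (log2 difference -0.04 ± 0.12 SE, adjusted p = 0.872).

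Among 18 genes that inhibit cyclin-dependent kinases or keep cells quiescent, 3 fell and 0 rose, where 0.885% of all tested genes were called lower, and the list median was -0.04. By unadjusted p under 0.05, 5 of the 18 were lower and 5 higher, against 8.27% and 11.6% of all tested genes. Without overlap 7 lay below WT and 6 above, against 22.9% and 27.5%. The largest positive difference was that of Klf2, a factor of quiescent T cells, at 268 and 231 FPKM in the Apoe-KO libraries, against 168 and 137 FPKM in the WT libraries (log2 difference 0.71 ± 0.14 SE, adjusted p = 0.0809). Cdkn2a, Cdkn2d and Btg2, which encode inhibitors of the cycle, had positive differences of 0.58, 0.50 and 0.31 (adjusted p = 0.132, 0.187 and 0.144). Tob1 and Foxo1 of the same list lay below WT without overlap, at -0.33 and -0.27 (adjusted p = 0.149 and 0.193). Cdkn1a, which encodes the kinase inhibitor p21, fell to 5.75 and 5.27 FPKM in Apoe-KO libraries, against 15.9 and 14.6 FPKM in WT libraries (log2 difference -1.32 ± 0.12 SE, adjusted p = 0.0148). The 4 libraries were far apart by genotype, and the call held in all 13 alternatives, with adjusted p up to 0.0467. Klf4, a factor that restrains T cell proliferation, fell to 78.9 and 72.8 FPKM, against 162 and 144 FPKM in WT (log2 difference -1.001 ± 0.11 SE, adjusted p = 0.0202), and had adjusted p = 0.0523 without WT replicate 1 and 0.0546 with no filter on low values. Tob2, an antiproliferative protein of the BTG family, fell to 68.5 and 57.01 FPKM, against 122 and 108 FPKM in WT (log2 difference -0.87 ± 0.13 SE, adjusted p = 0.0458), with adjusted p = 0.118 when WT replicate 1 was left out and 0.0686 when WT replicate 2 was. Tob2 also missed the threshold with no filter (0.0931), with a mean of 5 FPKM or more (0.0561), without the variance trend (0.0577), and after median-ratio (0.0574) or quantile scaling (0.0567). Cdkn1b, which encodes p27, was at 87.2 and 96.9 FPKM in Apoe-KO and 93.4 and 103 FPKM in WT (log2 difference -0.09 ± 0.11 SE, adjusted p = 0.679), and Btg1 was at 385 and 454 FPKM in Apoe-KO and 318 and 389.6 FPKM in WT (log2 difference 0.25 ± 0.14 SE, adjusted p = 0.386).

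**Figure D4:**
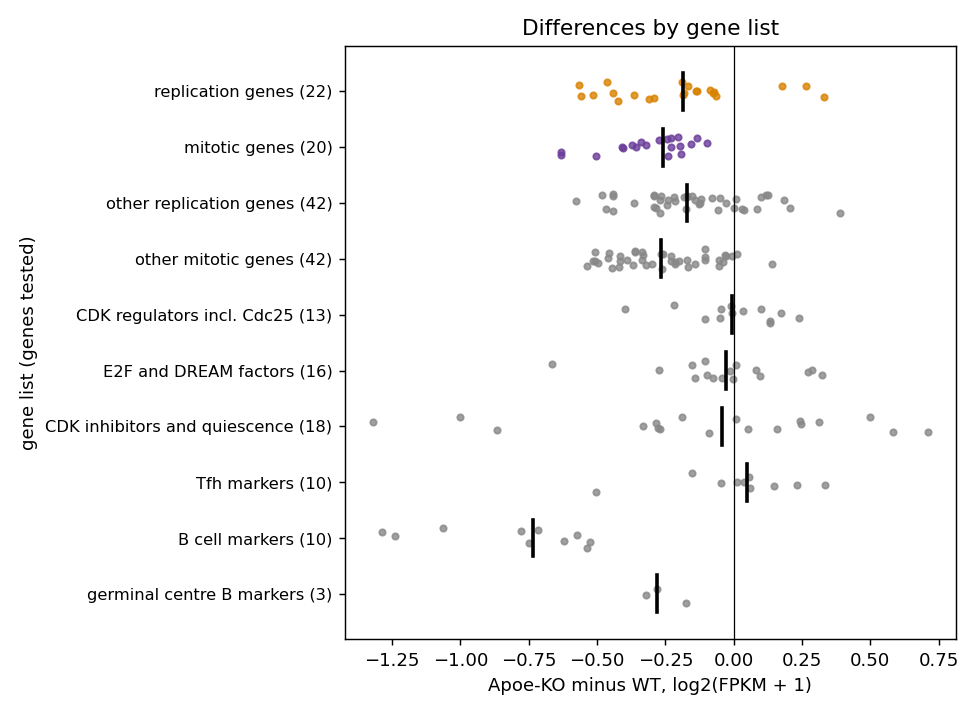
Apoe-KO minus WT difference of log2(FPKM + 1) for every tested gene of the 10 lists plotted, with the number of genes in parentheses and a black line at the list median. The replication and mitotic lists centre at -0.18 and -0.26, the B cell markers at -0.73, and the Tfh markers at 0.05.

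Markers of other cell types differed between the same libraries. All 10 B cell markers lay below WT without overlap, against 22.9% of all tested genes, with a median of -0.73. Of the 10, 4 fell, Fcer2a, Cd22 and Cr2 among them, where 0.885% of all tested genes were called lower. The call of Fcer2a held in all 13 alternatives, whereas adjusted p reached 0.123 for Cd22 (without WT replicate 2) and 0.102 for Cr2 (with no filter). Their summed level was 209.8 and 202 FPKM in the Apoe-KO libraries, against 343 and 339.8 FPKM in the WT libraries. Both B cells and Tfh cells divide in germinal centres. Of 8 markers of germinal centre B cells, 3 passed the filter on low values, and the summed level was 51.9 and 46.2 FPKM in Apoe-KO, against 59.6 and 57.96 FPKM in WT. Most of that sum came from S1pr2, which Tfh cells also express, and from Neil1. None of the 8 was at 0 in every library. The part of B cells in the lower replication and mitotic RNA was not tested.

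Of the other marker lists, plasma cell and erythroid markers had lower sums in Apoe-KO, and myeloid, dendritic, CD8 T and NK markers had higher ones. Macrophage and neutrophil markers, with Elane at 0 in every library, summed to 374 and 349.99 FPKM in Apoe-KO, against 271 and 237 FPKM in WT, and 4 of 11 tested ones rose (S100a8, S100a9, Retnlg and Vsig4), where 0.948% of all tested genes were called higher. Of the 11, 9 had a positive difference and 2 a negative one, namely Emr1 (-0.15) and Cd68 (-0.05). Emr1 lay below WT without overlap, at 9.03 and 9.94 FPKM in Apoe-KO, against 10.07 and 11.17 FPKM in WT. With no filter on low values the adjusted p of Vsig4 was 0.0945, and those of Itgax and Igj, named next, were both 0.0672. CD8 T and NK cell markers summed to 32.8 and 41.7 FPKM in Apoe-KO, against 23.9 and 24.4 FPKM in WT, with 0 of 8 passing. Dendritic cell markers summed to 19.6 and 20.996 FPKM in Apoe-KO, against 9.82 and 8.99 FPKM in WT, and Itgax of 5 tested ones rose, with adjusted p = 0.0571 when WT replicate 2 was left out. Plasma cell markers summed to 108 and 105 FPKM in Apoe-KO, against 117 and 127 FPKM in WT, where Igj alone of 5 rose, and erythroid markers to 34.4 and 30.7 FPKM in Apoe-KO, against 48.5 and 51.5 FPKM in WT, with 0 of 4 passing. Tfh markers summed to 1827 and 1789.9 FPKM in Apoe-KO, against 1796 and 1787 FPKM in WT, and 0 of 10 passed. Single Tfh markers lay on both sides of 0 within that sum, from -0.50 for Pdcd1, without overlap, to 0.33 for Cxcr5. The part of any of these cells in the replication and mitotic levels was not tested.

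Motif content and genotype difference were set side by side for the 34 members with a promoter window. The 13 members with an E2F match had a median log2 difference of -0.20, and the 21 without one -0.25. The 17 with a CHR match had a median of -0.25 and the 17 without -0.23. The 24 members with a CCAAT box had a median of -0.29 and ranged from -0.63 to -0.10, while the 10 without it had -0.12 and ranged from -0.57 to 0.33. The box was present in 15 of 17 mitotic genes and 9 of 17 replication genes. This contrast thus partly repeats the one between mitotic and replication genes. None of the 3 elements was found in the windows of Tk1 and Ccne1, which were higher in Apoe-KO without overlap, nor in those of Tyms, E2f1, Birc5 and Mad2l1, whose differences were negative. These figures are descriptive and no test was made of them.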

How the data were processed

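Per the submitters' processing notes, the tools were CASAVA 1.8.2, TopHat2 2.0.13 and Cuffdiff 2.2.0 with the genome build mm10, with no role or order given. For annotation, strand setting and filters, the sources used here give nothing. The authors deposited FPKM per gene symbol and library, already scaled for transcript length and mapped fragments, so read depth is unknown and no count model was used. In 2 of 23997 rows a space stands for a tab, and rows were split on white space. Genes with a mean of 1 FPKM or more (11187) were compared as log2(FPKM + 1) with limma 3.58.1 in R 4.3.3 (trended eBayes, two-sided, Benjamini-Hochberg over all tested genes, threshold 0.05). This scale understates changes of low genes. The procedure was tested on simulated data. The members and all lists were chosen with earlier results of these data known. All 42 members are described by role, with full statistics for the most abundant and the most different in each. Of other lists, the genes past the threshold (at most 4 each) and a few regulators of cycle entry are named. Foxm1, Mybl2, Gins3, Gins4, Incenp, Klf2, Cdkn2a, Cdkn2d, Btg2, Tob1 and Foxo1 were chosen after their values were seen. So were the Cdc25 genes and the markers named individually. Where exons of 12 members overlap a gene on the opposite strand (GENCODE M21, GRCm38), reads could not be assigned by strand unless the counting used it. Alternatives changed the pseudocount, filter, variance trend, scaling, block and libraries. Some single markers are not reported here.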

Additional observations from a re-analysis of the deposited data

How the results depend on the processing

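Read depth is unknown and each genotype has 2 libraries, which limits the precision of every single gene. Over the 13 alternatives no member passed in 11. The 42 genes kept their sign when libraries were rescaled or the pseudocount changed. Rescaling to one FPKM total moved the replication median to -0.23. With no filter 35 genes were called higher and 41 lower over all genes, and with a mean of 5 FPKM or more 51 were higher, with 36 members tested. With 1 library left out (its genotype then has a single library, whose spread is taken from the other), counts over all genes ranged from 54 to 317 higher and from 61 to 301 lower, members called from 0 to 1 (Bub1, without Apoe-KO replicate 2), the replication median from -0.20 to -0.18 and the mitotic median from -0.35 to -0.24. Members near 0 then turned sign: Tyms ranged from -0.16 to 0.022, Cdk1 from -0.21 to 0.0196, Top2a from -0.35 to 0.038, Cdt1 from -0.23 to 0.077, Gins1 from -0.037 to 0.39, E2f1 from -0.14 to 0.011, Gins2 from -0.35 to 0.084 and Gmnn from -0.20 to 0.0215. In 18 further members leaving out 1 library moved the difference by over 1.5 times without turning its sign, most widely in Mad2l1 (-0.63 to -0.045), Plk1 (-0.36 to -0.031), Ccnb1 (-0.35 to -0.056) and Ccnb2 (-0.23 to -0.037). Outside the members, Rbl2 ranged from -0.15 to 0.060 and Ccnd3 from -0.21 to 0.00063. With the replicate block, which the labels do not give, 1908 genes were higher and 1776 lower, and 25 members passed, 23 lower and 2 higher (Tk1 and Ccne1). The replicate 2 minus replicate 1 differences of Apoe-KO and WT had a correlation of 0.21 across tested genes, which are not independent.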
